A study of Rattus norvegicus with 6 samples.

Results

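Tgm2, the gene of transglutaminase 2, was examined in rat Schwann cells with and without soluble Neuregulin1 (NRG1), together with its relatives Tgm1 and F13a1. Tgm2 was chosen because, among the genes called as up-regulated by NRG1, it had the largest fitted log2 fold change, so its own change is given here as a description with no test. Tgm1 and F13a1 were taken as other members of the transglutaminase family. These 3 genes were found by symbol among the 17327 gene rows counted in every sample, and 3 further family rows, Tgm3, Tgm4 and Epb42, were held there too.

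The effect of 6 h of stimulation was examined in cultures of Schwann cells, the glia of peripheral nerves, grown from sciatic nerves of adult female Wistar rats. In 3 NRG1 samples the confluent cells received 10 nM recombinant soluble NRG1β1 for 6 h, and in 3 mock samples they received the same volume of buffer with bovine serum albumin (0 nM). All 6 samples had been starved for 18 h in medium that held 2% FBS and forskolin at 10 μM, which raises cAMP in the cells, and this medium was kept during stimulation. Before starvation all cultures had grown in medium with a neuregulin growth factor, named glial growth factor in the labels and NRG1β1 in the methods, so the mock cells were deprived of NRG1 and not naive to it. The cultures had no contact with axons and held cells from both myelinating and non-myelinating origin. Each replicate number, 1, 2 or 3, marks 1 independent cell preparation that gave a mock and an NRG1 sample.

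Transglutaminases join proteins by forming a bond between a glutamine and a lysine side chain, a reaction that needs calcium and makes cross-linked protein resistant to proteolysis. Transglutaminase 2 is the widely expressed member of the family. It acts inside the cell, where it also binds GTP and can work as a G protein, and outside the cell, where it binds fibronectin, integrins and syndecans and cross-links the extracellular matrix. Transglutaminase 1, encoded by Tgm1, builds the cornified envelope of the epidermis, and F13a1 encodes the catalytic subunit of coagulation factor XIII, which cross-links fibrin.

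Counts on genes ranged from 6821590 to 15475018 per sample, and a level of 3 counts corresponded to between 0.194 and 0.440 CPM, the count scaled to 1000000 counts on genes. Schwann cell identity was checked on 7 markers, which included Sox10, S100b and Erbb3. Their summed level was between 12655 and 16161 CPM in replicates 2 and 3 and was 5985 CPM in mock 1 and 4658 CPM in NRG1 1. It was lower with NRG1 in 3 of 3 pairs, and Cdh19, a cadherin gene of the Schwann cell lineage, was called as down-regulated by a log2 fold change of -1.10 (SE 0.14, edgeR adjusted p = 7.9e-05). Replicate 1 stood apart from the other preparations. It held markers of fibroblasts and of smooth muscle or pericytes in both its samples. Most of these, though not Col1a1 and Col3a1, were nearly absent elsewhere. The fibroblast genes Pdgfra, Dcn, Lum, Thy1 and Col1a2 summed to 2696 CPM in mock 1 and 2333 CPM in NRG1 1, against 0.147 to 1.62 CPM in the other 4 samples. Thy1 had 9493 counts in mock 1, 8576 in NRG1 1 and 0 in each of the others. Col1a2 was at 0 in replicate 1, with 2 counts in NRG1 2 as its only reads. The remaining fibroblast markers on the list, Col1a1 and Col3a1, were abundant in all 6 samples. Col1a1 was at 27470 CPM in mock 1 and 31035 CPM in NRG1 1, and at 13491.5 to 21294 CPM in replicates 2 and 3. Col3a1 was at 21783 CPM in mock 1 and 22457 CPM in NRG1 1, and at 170 to 830 CPM in replicates 2 and 3.

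In every pair Tgm2 was low in mock and higher with NRG1. It had 13 counts in mock 1, 14 in mock 2 and 49 in mock 3. With NRG1 it had 102 counts in NRG1 1, 484 in NRG1 2 and 628 in NRG1 3. The lowest NRG1 sample was thus above the highest mock sample, and mock 3, the deepest mock library, held most of the mock counts.

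On the CPM scale the mock levels of Tgm2 were 1.69 (exact Clopper-Pearson 95% interval 0.899 to 2.89) in mock 1, 2.05 (1.12 to 3.44) in mock 2 and 3.93 (2.91 to 5.20) in mock 3. The NRG1 levels were 13.2 CPM (10.7 to 16.0) in NRG1 1, 54.7 CPM (49.9 to 59.8) in NRG1 2 and 40.6 CPM (37.5 to 43.9) in NRG1 3. These intervals cover counting error only. The mean over the mock samples was 2.56 ± 1.21 CPM (SD, n = 3), and over the NRG1 samples it reached 36.1 ± 21.1 CPM (SD, n = 3). The groups did not overlap, which held in this direction for 9.00% of the 9740 genes tested. NRG1 1 was the low sample of its group, and its interval did not reach those of NRG1 2 and NRG1 3.

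**Figure D1:**
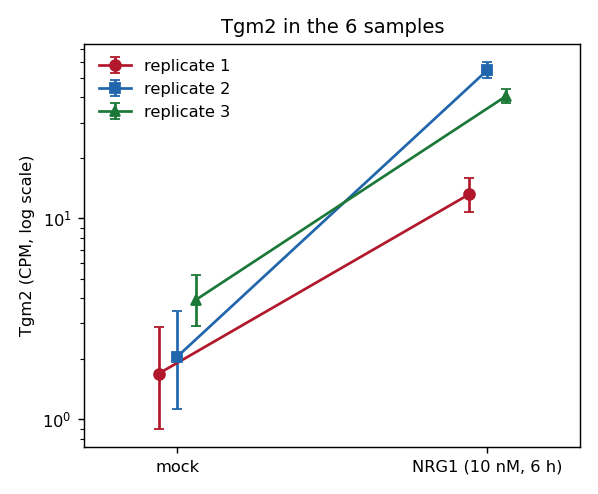
Tgm2 level in CPM (log scale) in the mock and NRG1 samples, with a line joining the samples of each replicate and bars showing exact 95% binomial intervals of the counts. All 3 lines rise, from 1.69 to 3.93 CPM in mock to 13.2 to 54.7 CPM with NRG1, and replicate 1 ends lowest.

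The size of the rise differed between the cultures. The level in NRG1 was 7.79-fold that in mock in pair 1, with an exact 95% interval for counting error of 4.36 to 15.1. In pair 2 it was 26.7-fold (15.7 to 49.1), and in pair 3 it was 10.3-fold (7.71 to 14.1). The interval of pair 2 lay above those of pairs 1 and 3, which overlapped each other. As log2 ratios of CPM with a prior count of 2, the rises were 2.83, 4.59 and 3.33 in pairs 1, 2 and 3, with an SD of 0.90. The fitted log2 fold change over the 3 pairs was 3.69 (SE 0.25), which is 12.9-fold. Here and below, the SE of an edgeR fold change was derived from the F statistic of the fit. That statistic shares variance information across genes, so neither this SE nor an interval built on it measures the spread between pairs.

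The low level in NRG1 1 went together with the different make-up of replicate 1. Sox10, the transcription factor that defines the Schwann cell lineage, was at 385 CPM in mock 1 and 462 CPM in NRG1 1, and between 1069 and 1259 CPM in the other samples. Fewer Schwann cells and less Sox10 RNA per cell cannot be told apart in such bulk RNA. Relative to Sox10, Tgm2 had 4.39, 1.90 and 3.29 counts per 1000 Sox10 counts in mock 1, 2 and 3, and 28.5, 51.2 and 32.2 in NRG1 1, 2 and 3. On this scale, chosen after the data were seen, NRG1 1 lay close to NRG1 3. The rise was then 6.49-fold in pair 1, 27.0-fold in pair 2 and 9.81-fold in pair 3, in the same order as on the CPM scale. The part of the other cell types in the smaller rise of pair 1 was not tested. Sox10 itself had a log2 fold change of 0.11 (SE 0.13, edgeR adjusted p = 0.58).

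Markers of cells in which transglutaminase 2 or factor XIII can be abundant were low or bound to replicate 1. Of 7 endothelial markers, Pecam1 and Cdh5 had no count in any sample, and the list summed to 13.2 to 19.9 CPM, with Tek and Egfl7 as its main part. Of 10 macrophage markers, Ptprc, C1qa, C1qb and Tyrobp had no count in any sample, and the list summed to between 3.29 and 10.4 CPM. The smooth muscle or pericyte list summed to 2004 CPM in mock 1 and 2006 CPM in NRG1 1 and to 5.54 to 12.3 CPM elsewhere. None of these sums was consistently higher with NRG1 than with mock. The endothelial sum was lower with NRG1 in every pair, and the macrophage and the smooth muscle or pericyte sums went both ways. Without replicate 1, the fitted log2 fold change of Tgm2 was 3.88, given as a description. The part of these cell types in the rise of Tgm2 was not tested.

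**Figure D2:**
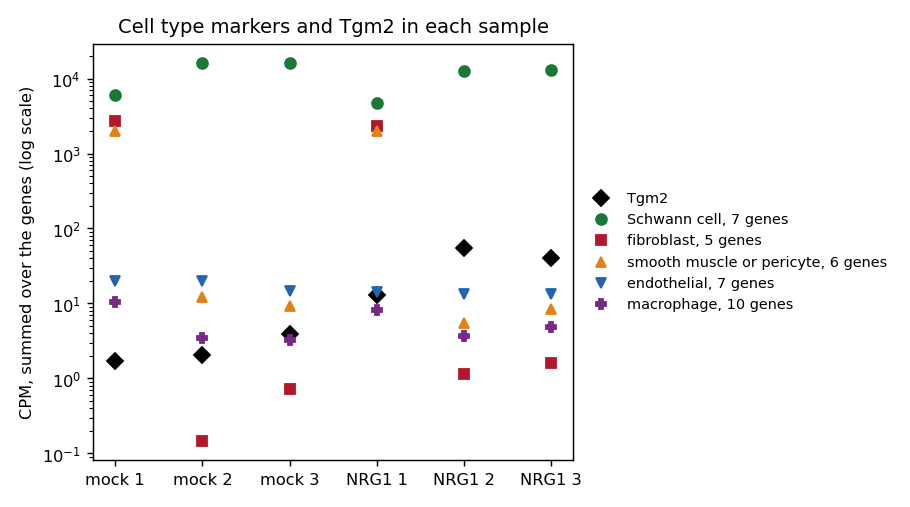
Summed CPM (log scale) of 5 cell type marker lists and the CPM of Tgm2 (black diamonds) in each of the 6 samples; the fibroblast list is drawn without Col1a1 and Col3a1. The fibroblast genes drawn and the smooth muscle or pericyte genes are high in both samples of replicate 1 only, at 2004 to 2696 CPM. Tgm2 is separated by treatment. Col1a1, left out, is high in all 6 samples.

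Tgm2 had the largest log2 fold change in either direction among the 9740 genes tested by edgeR, of which 152 (1.56%) were called as up-regulated and 186 (1.91%) as down-regulated, the limits being 0.01 for the adjusted p and 1 for the size of the log2 fold change. The deepest fall was -3.58. This rank chose the gene, so nothing is read from it. By p-value Tgm2 was at position 5 in the same contrast, and nothing is read from that position either.

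The genes next in order were Dscaml1, Cacna1i and Slc1a3, and the first of them was close to Tgm2. Dscaml1, which encodes a neural cell adhesion molecule of the immunoglobulin superfamily, had 2, 21 and 70 counts in mock 1, 2 and 3 and 78, 418 and 724 counts in NRG1 1, 2 and 3. Its log2 fold change was 3.55 (SE 0.24), so the gap of 0.15 to Tgm2 was smaller than the SE of either gene. Cacna1i, a T-type calcium channel gene, followed with 3.08 (SE 0.29), and Slc1a3, the gene of the glutamate transporter GLAST, with 3.01 (SE 0.27).

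The order depended on the pair and on the processing. Among the 152 up-regulated genes, Tgm2 took rank 7 by the log2 ratio of pair 1, rank 2 in pair 2 and rank 2 in pair 3. Dscaml1 was first in pair 1, and Dio3, the gene of the deiodinase that inactivates thyroid hormone, was first in pairs 2 and 3. Tgm2 kept rank 1 with RLE normalization, in DESeq2 with shrunken fold changes or with no replicate block, and with a minimum of 10 counts in every sample, a filter that removes Dscaml1. It took rank 2 behind Dscaml1 in DESeq2 with unshrunken fold changes and rank 4 with no low-count filter. Without replicates 1, 2 and 3 its ranks were 4, 3 and 2. Without replicate 1 Dio3 was first, at a log2 fold change of 5.38, and without replicate 2 it was Trim29, at 3.58.

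**Figure D3:**
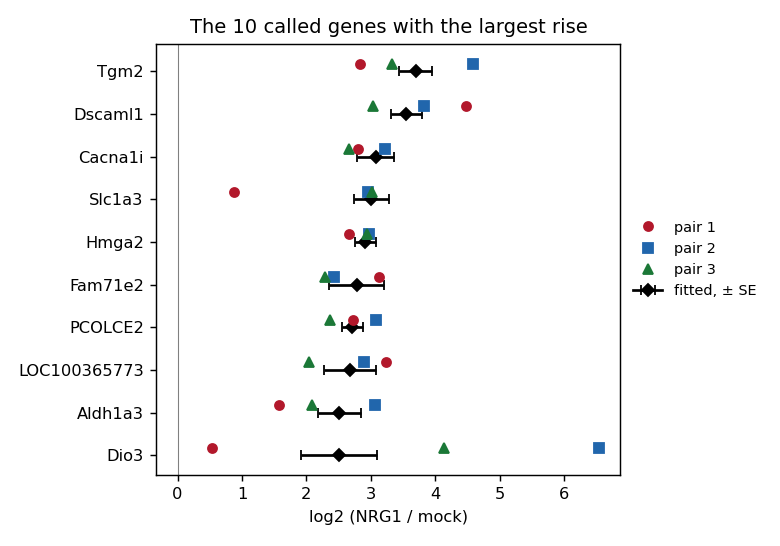
Log2 ratio of NRG1 to mock for the 10 called genes with the largest fitted rise, shown for each pair (coloured points) and as the fitted log2 fold change with its SE (black diamonds). Tgm2, at 3.69, and Dscaml1, at 3.55, have overlapping errors, and Slc1a3 (0.88) and Dio3 (0.53) have their lowest ratios in pair 1.

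The spread of the rise over the pairs varied between up-regulated genes. Their median log2 ratio was 1.35 in pair 1, 1.39 in pair 2 and 1.15 in pair 3, so the median of pair 1 lay between the others. The order of Tgm2, largest in pair 2 and smallest in pair 1, was found in 29 of the 152 up-regulated genes (19.1%) and in 20.2% of all genes tested. Among the 10 genes with the largest fitted rise, the SD of the log2 ratio over the pairs ran from 0.18 for Hmga2, the gene of a chromatin architectural protein, to 3.03 for Dio3. Tgm2, at 0.90, lay below Dio3 and Slc1a3 (1.22) and above Aldh1a3 (0.75) and Dscaml1 (0.73).

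Tgm1 was counted at the edge of detection and did not follow Tgm2. It had 6, 2 and 13 counts in mock 1, 2 and 3 and 22, 1 and 13 counts in NRG1 1, 2 and 3, so the groups overlapped. In CPM the mock mean was 0.706 ± 0.381 (SD, n = 3) and the NRG1 mean was 1.26 ± 1.41 (SD, n = 3). The ratio of NRG1 to mock in pair 1 was 3.64 (exact 95% interval for counting error 1.43 to 10.97), while in pair 3 it was 0.805 (0.344 to 1.88). In pair 2 both samples were below the floor of 3 counts. A rise was therefore seen in replicate 1 alone, the preparation with the highest levels of fibroblast and smooth muscle markers. The part of those cells in this rise was not tested. Tgm1 did not pass the filter on low counts. With no such filter its log2 fold change was 0.56 (SE 0.57, edgeR adjusted p = 0.59), without replicate 2, where it passed, it was 0.73 (edgeR adjusted p = 0.39), and DESeq2 gave it no adjusted p.

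F13a1 had 3 counts in mock 1, 2 counts in NRG1 1 and 0 in each of the other 4 samples. The floor of 3 counts taken for a count of 0 was 0.440 CPM in mock 2, 0.241 CPM in mock 3, 0.339 CPM in NRG1 2 and 0.194 CPM in NRG1 3, and the upper bounds of the exact 95% interval were 0.541, 0.296, 0.417 and 0.238 CPM. All reads of this gene thus came from replicate 1, and no fold is given because every sample was at or below the floor of 3 counts. A response of F13a1 to NRG1 was not detectable at this depth.

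Among the further family rows, Tgm4 was the one counted well in every sample. Tgm4, the prostate transglutaminase of rodents, had 82, 99 and 169 counts in mock 1, 2 and 3 and 92, 135 and 187 counts in NRG1 1, 2 and 3. In mock its level was 12.9 ± 2.01 CPM (SD, n = 3), and with NRG1 it was 13.1 ± 1.90 CPM (SD, n = 3). The log2 fold change was 0.01 (SE 0.17, edgeR adjusted p = 0.97) with a 95% interval of -0.35 to 0.38, which leaves out a doubling or a halving. Whether reads of an overlapping transcript were counted under this symbol was not tested.

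Epb42, which encodes the red cell membrane protein band 4.2, a family member without enzyme activity, had between 0 and 6 counts. Tgm3, a transglutaminase of hair and epidermis, had 0 counts in all samples, with upper bounds of the exact 95% interval of 0.238 to 0.541 CPM. Of the 5 family rows other than Tgm2, only Tgm4 passed the low-count filter, and edgeR called 0, as did DESeq2, with 0 at an unadjusted p under 0.05. With no such filter Epb42 had a log2 fold change of -1.59 (SE 1.13, edgeR adjusted p = 0.39). The share called over all genes was 3.47%. The same floor limits what can be said about Tgm1, F13a1, Tgm3 and Epb42.

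**Figure D4:**
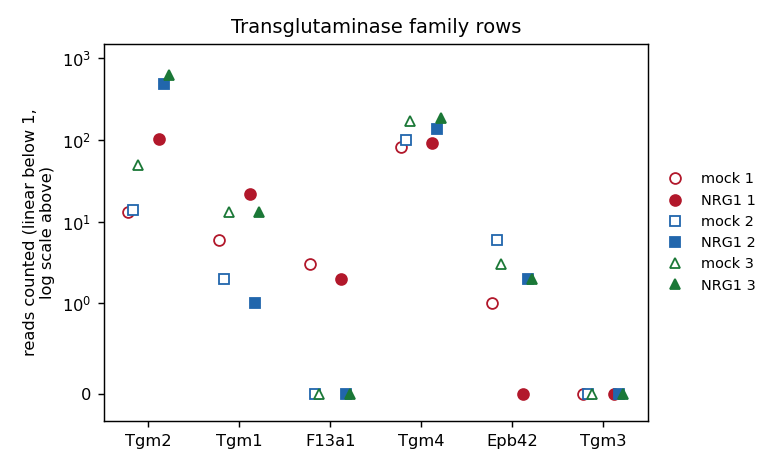
Reads counted for the 6 transglutaminase family rows in each sample (open symbols mock, filled symbols NRG1; the axis is linear below 1 and logarithmic above). Tgm2 rises from 13 to 49 counts to 102 to 628 counts, Tgm4 stays between 82 and 187 counts, and the other 4 rows have at most 22 counts.

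Genes that work with transglutaminase 2 or are known to control it were taken in 6 lists by role, of which 67 of 71 genes were held and 52 were tested. Of these 52, edgeR called 1 as up-regulated and 1 as down-regulated, against 1.56% and 1.91% of all genes, and DESeq2 with the replicate block gave the same numbers. At an adjusted p of at most 0.01 with no minimum fold change, 5 rose and 2 fell, against 6.31% and 5.51% of all genes, or 11.8% in either direction. An unadjusted p under 0.05 was found for 20 of the 52 and for 35.7% of all genes tested, so the counts at that limit given below are to be read against this share. The median log2 fold change of the 52 was -0.05, near the -0.03 of all genes tested.

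Cell-surface partners of transglutaminase 2 mostly passed neither threshold. Of 10 tested, 0 were called by edgeR, 5 had an unadjusted p under 0.05 (35.7% of all genes) and the median log2 fold change was -0.09. Itgb5, an integrin β subunit, was lower with NRG1 by a log2 fold change of -0.69 (SE 0.17, edgeR adjusted p = 0.0086), and missed the threshold without replicate 2 (-0.43, edgeR adjusted p = 0.052) and without replicate 3 (-0.64, edgeR adjusted p = 0.044). Itga5, the α subunit of the fibronectin receptor, narrowly missed the adjusted p threshold with 0.50 (SE 0.13, edgeR adjusted p = 0.011). It met that threshold in DESeq2 with the replicate block (adjusted p = 0.0053 unshrunken and 0.0058 shrunken) and without replicate 1 (edgeR adjusted p = 0.0039). It missed it without replicate 2 (edgeR adjusted p = 0.034) and without replicate 3 (edgeR adjusted p = 0.088). The abundant Itgb1, the β subunit of that receptor, had 0.03 (SE 0.13, edgeR adjusted p = 0.91) and Lrp1, an endocytic receptor, had -0.29 (SE 0.21, edgeR adjusted p = 0.35).

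Matrix substrates included Spp1 and Col3a1, whose values, given below, shifted when any replicate was left out and most without replicate 1. Of 7 tested, 0 were called and 3 had an unadjusted p under 0.05 (35.7% of all genes), and Ltbp1, which anchors latent TGF-β in the matrix, rose by a log2 fold change of 0.66 (SE 0.12, edgeR adjusted p = 0.0017), which missed the threshold without replicate 3 (0.59, edgeR adjusted p = 0.031). Fn1, encoding fibronectin, had -0.39 (SE 0.18, edgeR adjusted p = 0.14). Col1a1, the most abundant gene of the list, had -0.16 (SE 0.19, edgeR adjusted p = 0.58).

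Spp1, encoding the matrix protein osteopontin, was named after its values were seen. It had 348, 5 and 5 counts in mock 1, 2 and 3 and 268, 100 and 79 counts in NRG1 1, 2 and 3. It was therefore high in both samples of replicate 1 and higher with NRG1 in the other pairs alone. Its log2 fold change was 1.16 (SE 0.51, edgeR adjusted p = 0.12) over all pairs and 3.79 (edgeR adjusted p = 9.9e-16) without replicate 1. With no low-count filter it kept 1.17 and was called (edgeR adjusted p = 0.00036). It was not called without replicate 2 (0.40, edgeR adjusted p = 0.55), without replicate 3 (0.69, edgeR adjusted p = 0.27) or in DESeq2 with the replicate block, which gave 2.54 unshrunken (adjusted p = 0.13) and 0.14 shrunken (adjusted p = 0.81). Col3a1, a fibrillar collagen gene likewise high in replicate 1, went from -0.98 (SE 0.25, edgeR adjusted p = 0.012) to -1.48 (edgeR adjusted p = 3.2e-13) without that replicate. It was -0.65 (edgeR adjusted p = 0.12) without replicate 2, -0.74 (edgeR adjusted p = 0.22) without replicate 3 and -0.36 (adjusted p = 0.50) in DESeq2 with shrinkage. Without replicate 1, the lists thus held 2 called up and 2 called down. Calls over the whole table were also more numerous in that setting, with 202 up and 299 down among 9926 genes tested.

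G protein and redox partners showed no call. Of 6 tested, 0 passed in edgeR and 0 had an unadjusted p under 0.05 (35.7% of all genes), with log2 fold changes between -0.23 and 0.28. Among them were Calr, encoding calreticulin, which binds transglutaminase 2 in its G protein form, with -0.09 (SE 0.13, edgeR adjusted p = 0.67), and Pdia3, a disulphide isomerase that oxidizes the enzyme, with -0.23 (SE 0.13, edgeR adjusted p = 0.23). The α1-adrenergic receptors Adra1a and Adra1b, which couple to it, had at most 3 counts in a sample. A further α1 receptor gene, Adra1d, had 4, 15 and 15 counts in mock 1, 2 and 3. With NRG1 it had 5, 21 and 25 counts, a log2 fold change of 0.28 (SE 0.37, edgeR adjusted p = 0.63).

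Retinoic acid is a known inducer of Tgm2, and its pathway held both calls of the lists. These were 1 gene up and 1 down of 9 tested, against 1.56% and 1.91% of all genes. The part of retinoic acid in the rise of Tgm2 was not tested. Aldh1a3, encoding an enzyme that makes retinoic acid, had 5, 7 and 16 counts in mock 1, 2 and 3 and 18, 90 and 93 counts in NRG1 1, 2 and 3. The groups did not overlap in CPM, which held in this direction for 9.00% of all genes tested. The log2 fold change of Aldh1a3 was 2.51 (SE 0.33, edgeR adjusted p = 0.00013), which missed the threshold with no replicate block (adjusted p = 0.18 in edgeR and 0.012 in DESeq2). Rxrg, a retinoid X receptor gene, had 33.7 ± 9.52 CPM (SD, n = 3) in mock and fell with NRG1 to 14.3 ± 5.49 CPM (SD, n = 3). Its log2 fold change was -1.26 (SE 0.16, edgeR adjusted p = 1e-04), and it too missed the threshold with no replicate block (adjusted p = 0.22 in edgeR and 0.047 in DESeq2). Of the 9 retinoid genes tested the other 7 were not called, and Rara, the gene of a retinoic acid receptor, had 0.37 (SE 0.12, edgeR adjusted p = 0.032). Dhrs3, another gene of this list, had 0.08 (SE 0.16, edgeR adjusted p = 0.74). Rarb had at most 8 counts in a sample, and Cyp26a1 and Stra6 had 0 counts throughout. Cyp26b1 did not pass the low-count filter. It had 24, 4 and 7 counts in mock 1, 2 and 3 and 19, 1 and 1 counts in NRG1 1, 2 and 3.

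Genes of the TGF-β pathway, another known inducer of Tgm2, stayed under the fold threshold. The part of this pathway in the rise of Tgm2 was not tested. Of 10 tested 0 were called and 5 had an unadjusted p under 0.05 (35.7% of all genes). At an adjusted p of at most 0.01 alone 3 rose and 0 fell, against 6.31% and 5.51% of all genes. The list median was 0.18. Among the 3 were Tgfb1, the ligand gene, with a log2 fold change of 0.65 (SE 0.12, edgeR adjusted p = 0.0019), and Smad3, a signal transducer, with 0.57 (SE 0.12, edgeR adjusted p = 0.0041). Each of the 3 was higher with NRG1 in 3 of 3 pairs. Smad3 missed the adjusted p threshold without replicate 1 (edgeR adjusted p = 0.016) and without replicate 3 (edgeR adjusted p = 0.047).

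NF-κB, IL-6 and hypoxia factors showed no call in edgeR. Of 10 tested 0 passed either threshold and 4 had an unadjusted p under 0.05 (35.7% of all genes), with log2 fold changes between -0.42 and 0.38 and a median of -0.08. Il6st, the shared receptor subunit of the IL-6 family, had 0.29 (SE 0.13, edgeR adjusted p = 0.12) and Hif1a, the hypoxia factor, had -0.10 (SE 0.13, edgeR adjusted p = 0.63).

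**Figure D5:**
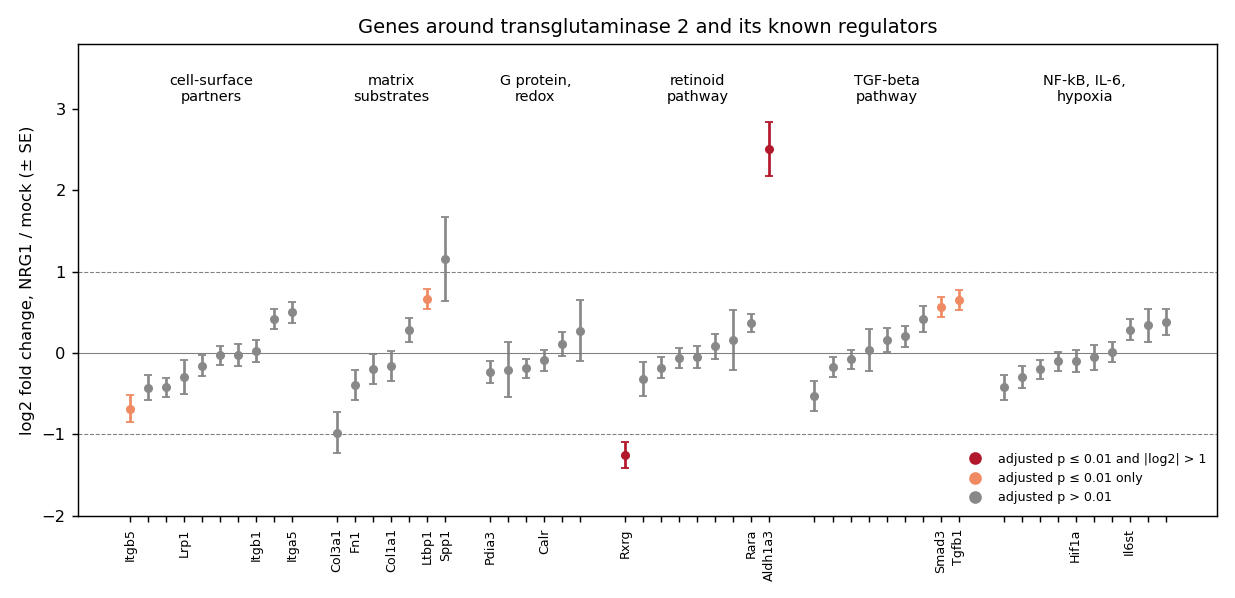
Log2 fold change of NRG1 against mock with its SE for 51 of the 52 tested genes of 6 lists around transglutaminase 2. Genes are grouped by role and sorted within each list, and most of those described in the text are labelled. Dashed lines mark a log2 fold change of -1 and 1. Aldh1a3 (2.51) and Rxrg (-1.26) pass both thresholds, and Spp1 (1.16) passes that of the fold change alone.

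The genes beside Tgm2 that were tested had log2 fold changes between -0.13 and 0.38. Of the 5 named protein-coding genes on each side in the RefSeq annotation of the GRCr8 assembly, used for gene order only, 7 of 10 were held and 5 were tested. By edgeR 0 were called (3.47% of all genes tested), as by DESeq2, and 1 had an unadjusted p under 0.05 (35.7%). At these shares, 0 calls among 5 genes says little. Rprd1b, the nearest on one side and a regulator of RNA polymerase II, had 241, 262 and 428 counts in mock and 248, 279 and 540 counts in NRG1 samples 1, 2 and 3, a log2 fold change of -0.07 (SE 0.14, edgeR adjusted p = 0.75). Tti1 had 0.04 (SE 0.14, edgeR adjusted p = 0.87), Ralgapb had -0.01 (SE 0.12, edgeR adjusted p = 0.96) and Nnat had -0.13 (SE 0.16, edgeR adjusted p = 0.60). Ctnnbl1, a spliceosome-associated factor, was the gene with p under 0.05, with 0.38 (SE 0.12, edgeR adjusted p = 0.035). Bpi had 0 counts, and Lbp was counted in replicate 1 only, with 53 counts in mock 1 and 64 in NRG1 1.

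The profiles most like that of Tgm2 over the 6 samples belonged to genes with much smaller changes. By Pearson's r of log2 CPM the first 8 included LOC499339, Wdr74, Tpm3, Set, Utp20, Tmem222 and Eif3c, with r from 0.993 to 0.998 and Spearman's rho from 0.943 to 1. Their log2 fold changes lay between 0.44 for Utp20 and 1.05 for Set, and Set alone was called. Over all other genes tested, 516 (5.30%) had r over 0.9. The points share the 6 libraries and the treatment that chose Tgm2, so the coefficients describe these samples and carry no p.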

How the data were processed

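RNA was measured in 6 samples, 3 mock and 3 NRG1, grouped and numbered by the sample titles. Poly(A) reads had been aligned to rn5, a rat assembly, by TopHat 2.0.10, and the authors deposited raw htseq counts for each RefSeq gene symbol, not normalized. Strand handling was not given in the sources used here. Summary lines that name no gene were kept out, and counts on genes were 47.0% to 49.9% of all alignments listed. Differential expression used edgeR 4.0.16 in R 4.3.3, with filterByExpr (minimum count 10, 9740 genes kept), TMM and a quasi-likelihood fit blocked on the replicate number, since the study's methods pair the samples, and Benjamini-Hochberg adjustment over all genes tested. DESeq2 1.42.0 was an alternative. CPM is the count divided by all counts on genes. The fit was also run on simulated counts with planted changes and a single fixed dispersion, which does not measure its error rates in these data. Same-numbered samples came from the same cell preparation and deviated together from their group means (r = 0.91, 0.67 and 0.81 across genes, against -0.80 to 0.51 between different numbers, with both values of 0.51 between replicates 2 and 3). The members and lists were chosen with earlier results of these data known. Named genes were the members, the family, called list genes and up to 2 abundant uncalled ones a list, the next 3 by rank, the neighbours the marker genes and the 8 most similar profiles; others were named after their values were seen. Gene order came from RefSeq (GRCr8), whose coordinates were not used. A few genes of the lists are not reported here by name.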

Additional observations from a re-analysis of the deposited data

How the results depend on the processing

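The fitted log2 fold change of Tgm2 stayed between 2.90 and 4.0 in all alternatives run, and its log2 ratio within each pair moved by less than the SD between pairs with a prior count of 0.5 or 5 and per Sox10 count. Its rank among called genes became 2 in DESeq2 with unshrunken fold changes, 4 with no low-count filter and 2 to 4 when 1 replicate was left out. With no replicate block, which ignores the pairing, edgeR called 0 genes up and 0 down, so the lists held 0 calls and no rank could be given. DESeq2 with no replicate block called 54 up and 34 down, with 0 and 0 in the lists. DESeq2 with the replicate block called 139 up and 123 down unshrunken, and 101 up and 88 down shrunken. Leaving out 1 replicate gave 133 to 202 genes up and 122 (without replicate 2) to 299 (without replicate 1) down, and 1 to 2 list genes up and 1 to 2 down. List genes called up were 2 with no low-count filter and 0 with at least 10 counts in every sample, a filter that removes Aldh1a3. Tgm4, at 0.01, changed sign to -0.0024 with no low-count filter, to -0.048 without replicate 1 and to -0.0072 without replicate 2, and was 0.13 without replicate 3. The family other than Tgm2 and the neighbours had 0 calls in every alternative. Except where a filter itself explains it, the cause was not tested. Tgm2 had only 13 and 14 counts in mock 1 and 2, which limits the precision of its fold change.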

Other observations

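A total of 6 genes exceeded the rise of Tgm2 in at least 1 alternative, namely Dio3, Dscaml1, Kcnt1, Slc13a5, Susd4 and Trim29, and they were named after their values were seen. Dio3 had 104, 0 and 7 counts in mock 1, 2 and 3 and 151, 167 and 202 counts in NRG1 1, 2 and 3, so that its mock level was high in replicate 1 alone. Kcnt1, a sodium-activated potassium channel gene, had 0, 0 and 2 counts in mock and 6, 20 and 28 counts in NRG1 samples 1, 2 and 3. Il6, the gene of interleukin 6, had 265 counts in mock 1 and 282 in NRG1 1 and at most 2 counts in each other sample.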
